A study of Cucumis melo with 18 samples.

Results

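The comparison described here is that of the melon (Cucumis melo) inbred line “B-6”, whose ripe flesh is white, at 30 and at 10 DAP (days after pollination). It uses 6 of the 18 RNA-seq libraries of the series, the 3 libraries of group “3_6” (30 DAP) against the 3 of group “1_6” (10 DAP), chosen by the line and stage in their labels and not by any measured value. The remaining libraries are “B-6” at 45 DAP (“4_6”) and the orange-fleshed inbred line “B-14” at 10, 30 and 45 DAP (“1_14”, “3_14” and “4_14”), 3 in each group. The study collected flesh from 3 plants of each inbred line, 1 fruit per plant, with 3 biological replicates per stage, and the labels give line and stage as the conditions. Whether a library stands for 1 fruit or for a pool is not stated, and young or expanded fruits below stand for the libraries of a stage. The labels name the tissue blade while the paper's methods describe fruit flesh, and the tissue could not be checked against marker genes because no source at hand pairs the MELO3C identifiers with such markers. The text below follows the paper and writes flesh.

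A melon fruit grows first by cell division and then mainly by cell expansion, before it ripens. Young melon flesh holds chloroplasts with chlorophyll, and carotenoids accumulate later in chromoplasts of orange types. Both pigments share geranylgeranyl diphosphate, the precursor of phytoene and of the phytol tail of chlorophyll, while the chlorophyll ring comes from the tetrapyrrole pathway, which also gives haem. Carotenoids are in turn cleaved to volatiles and to the precursors of abscisic acid (ABA) and strigolactones.

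The 6 libraries held between 20651703 and 22131791 counts each. Levels are given as CPM, that is, after division by library size and TMM factors (trimmed mean of M values) over all 18 libraries, and a level of 3 counts in a library, between 0.135 and 0.159 CPM, was taken as the floor of detection. The TMM factors were 0.992, 0.886 and 0.850 in replicates 1, 2 and 3 of “1_6” and between 1.00 and 1.02 in “3_6”. Between replicates, Pearson's r of log2 CPM across genes, which are not independent replicates, lay between 0.979 and 0.992. The 3 libraries of 10 DAP varied more among themselves than those of 30 DAP, with a common biological coefficient of variation of 0.181 against 0.0994. Since these are bulk samples, fewer cells of a type and less RNA per cell cannot be told apart.

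A large part of the transcriptome changed between young and expanded flesh, and more genes fell than rose. Of the 22394 genes in the file, 16478 passed the filter on low counts, and 7041 (42.7%) were DEGs by edgeR's quasi-likelihood F test, that is, their level changed 2-fold or more in either direction and the p-value, before adjustment, did not exceed 0.05. Upregulated DEGs numbered 2900 (17.6% of the genes tested) and downregulated DEGs 4141 (25.1%). The Benjamini-Hochberg adjusted p-value was at most 0.05 for 7020 of the 7041. The median log2 fold change over all genes tested was 0.025, and library size alone in place of TMM moved it by 0.153.

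The downregulated side was also the one with the larger changes. A change of at least 4-fold was found in 2707 downregulated and 1098 upregulated DEGs, and one of at least 16-fold in 1290 and 265. A test against a fold change of 2, in place of 0, kept 5615 genes, 2072 upregulated and 3543 downregulated. Another 5542 genes met the limit on the p-value with a change under 2-fold. For 79.3% of all genes tested the 3 libraries of one stage lay entirely above the 3 of the other, and the same held for 99.5% of the DEGs.

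The share of downregulated genes was highest among genes of low level. With the genes tested split into 4 classes of equal size by their mean over the 6 libraries, 39.3% of the lowest class, from 0.275 to 6.5 CPM, were downregulated and 20.1% upregulated. The shares were 20.8% and 19.6% between 6.5 and 23 CPM, 17.4% and 15.7% between 23 and 62.3 CPM, and 23% and 15% in the highest class, up to 5650 CPM. In the plot of all genes tested, this appears as the wide spread of downregulated genes at low mean levels.

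**Figure D1:**
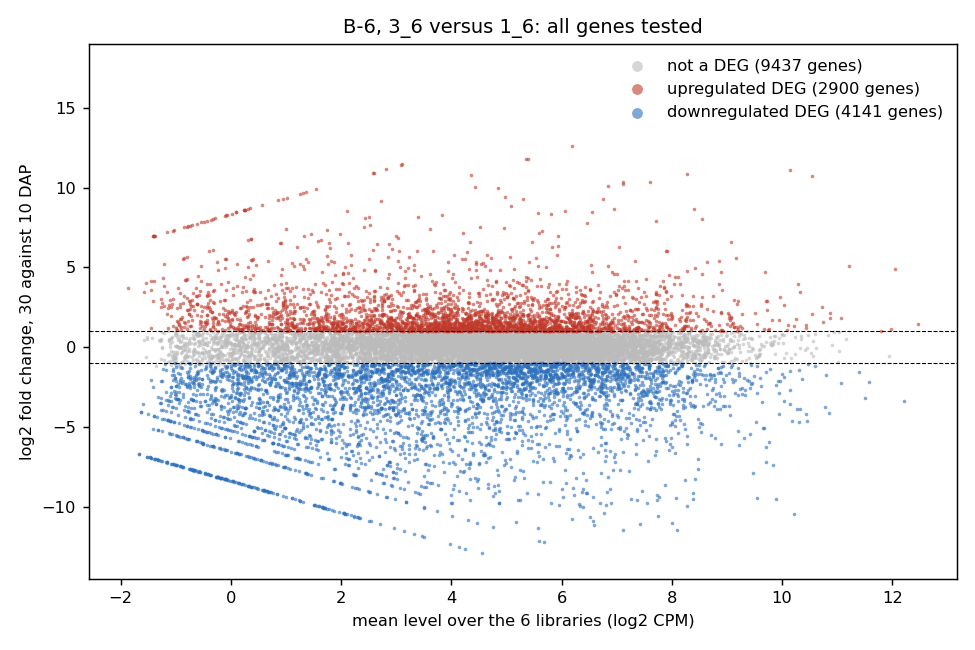
Log2 fold change at 30 against 10 DAP in “B-6” (vertical axis) against the mean level over the 6 libraries in log2 CPM (horizontal axis), 1 point per gene, for the 16478 genes tested; dashed lines mark a fold change of 2 in either direction. More of the 4141 downregulated DEGs (blue) than of the 2900 upregulated DEGs (red) lie far from 0, with 1290 against 265 at 16-fold or more, and the slanted lines of points at low levels are genes with 0 counts or nearly so in every library of one stage.

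The makeup of the RNA changed with it. The genes that were downregulated DEGs took 38.3% to 42.5% of all counts in the libraries of 10 DAP and 7.86% to 8.71% in those of 30 DAP. The upregulated DEGs took 7.06% to 7.51% at 10 DAP and 30.0% to 31.2% at 30 DAP. These shares describe the change and test nothing, since the DEGs were called on the same counts. Of the 100 genes with the highest mean level at each stage, 33 were on both lists.

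Fewer genes were detected in the expanded fruit, and a little more of the RNA came from its most abundant genes. Genes with at least 10 counts numbered 16360 ± 92.5 (SD, n = 3) at 10 DAP and 15350 ± 13.1 at 30 DAP. The 10 most abundant genes of a library held 4.01% ± 0.0196 of the counts at 10 DAP and 4.75% ± 0.0849 at 30 DAP. In both measures the stages did not overlap, and a two-sided exact permutation test gave p = 0.1, the smallest value that 3 against 3 libraries allow. The number of most abundant genes that together held 50% of the counts was 1059 ± 109 at 10 DAP and 1088 ± 10.4 at 30 DAP, and there the stages overlapped (exact permutation p = 0.7).

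Some genes passed from expressed to the floor. At 30 DAP, 594 genes had at most 3 counts in every library while each library of 10 DAP held at least 10, and 128 genes had the reverse pattern. Most were low to begin with, at a median of 2.53 CPM at 10 DAP for the first set and 1.88 CPM at 30 DAP for the second. Of the 594, 440 were also at the floor in all 3 libraries of “B-6” at 45 DAP and 442 in all 3 of “B-14” at 30 DAP. Of the 128 genes at the floor in young “B-6” fruit, 66 were at the floor in young “B-14” fruit too. With at least 100 counts asked of the expressed stage, 135 and 27 genes remained.

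The genes with the smallest p-values are given by identifier, since no source at hand annotates them. MELO3C010782.2 had 224, 216 and 239 CPM in the libraries of 10 DAP and 0.527, 0.381 and 0.359 CPM in those of 30 DAP (log2 fold change -9.05 ± 0.15 SE, adjusted p = 1.15e-07). MELO3C014658.2 had 555, 634 and 660.0 CPM at 10 DAP and 0.671, 0.476 and 0.718 CPM at 30 DAP (-9.94 ± 0.18). Both were thus among the well expressed genes of the young fruit and close to the floor in the expanded one. Among the upregulated DEGs, MELO3C006246.2 went from 7, 6.67 and 7.65 CPM to 481, 475 and 452 CPM (6.04 ± 0.11, adjusted p = 1.15e-07). MELO3C018489.2 went from 0.724, 1.04 and 1.17 CPM to 127, 110.4 and 128 CPM (6.96 ± 0.16, adjusted p = 1.35e-07). These 4 genes were chosen by their p-value, a choice that favours stages far apart and replicates close together.

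The genes described in the following form 4 lists, and 147 of them passed the filter. They were taken by identifier from the paper, and a symbol or name is used where it is paired with the identifier there. Of the 147, 41 were upregulated and 51 downregulated DEGs, 92 together, beside 17.6% and 25.1% of all genes tested. The stages did not overlap in 91 of these 92 DEGs, beside 99.5% of all DEGs and 79.3% of all genes tested. Genes whose levels in every library are given below were mostly chosen among those without overlap. The exception among the 92 was the receptor kinase At3g47110-like (MELO3C010825.2), with log2 fold change -1.20 ± 0.46 (SE), adjusted p = 0.0431. That call was lost with library size alone and when replicate 1 or 2 of “1_6” or replicate 1 or 3 of “3_6” was left out, in which fits the log2 fold change lay between -1.15 and -0.87. Since the study took its carotenoid and chlorophyll lists partly from this comparison and the others from other groups, the counts of these lists are a description of their members and no independent evidence of a direction.

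The carotenoid list held 27 genes, 2 of them known only as identifiers among the genes measured by RT-qPCR and not named here. All were tested, and 12 were upregulated and 6 downregulated DEGs and 9 were neither, beside 17.6% upregulated and 25.1% downregulated of all genes tested. Their median log2 fold change was 0.90, beside 0.025 for all genes tested. The counts differed from step to step. The synthesis of phytoene and its desaturation held 7 upregulated and no downregulated DEGs among 10 genes, and cyclization, hydroxylation and cleavage held DEGs in both directions.

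GGPS (MELO3C020952.2), which makes geranylgeranyl diphosphate, had 51, 55.7 and 61.1 CPM at 10 DAP and 115, 125 and 115 CPM at 30 DAP. The stages did not overlap, and the level rose 2.11-fold (log2 fold change 1.08 ± 0.087 (SE), adjusted p = 1.39e-05). Phytoene synthase (PSY) joins 2 molecules of it in the first step committed to carotenoids. PSY MELO3C025102.2 had 30.4, 35.7 and 39.2 CPM in the 3 libraries of 10 DAP and 161, 155 and 144 CPM in the 3 of 30 DAP. Every library of 30 DAP was thus far above those of 10 DAP, a 4.37-fold rise (log2 fold change 2.13 ± 0.11 (SE), adjusted p = 1.28e-06). At 45 DAP the mean was 193 ± 44 CPM. The second PSY gene, MELO3C016185.2, also rose, with log2 fold change 1.38 ± 0.34 (SE), adjusted p = 0.00612.

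Phytoene becomes lycopene through 2 desaturases and 2 isomerases. The phytoene desaturase PDS MELO3C017772.2 had 56.8, 64.5 and 53.1 CPM at 10 DAP and 150.2, 172 and 175 CPM at 30 DAP, without overlap (log2 fold change 1.51 ± 0.10 (SE), adjusted p = 5.83e-06). The other PDS gene, MELO3C020832.2, changed by 1.14 ± 0.15, ZDS, the zeta-carotene desaturase, by 1.20 ± 0.077, and the prolycopene isomerase CRTISO MELO3C016495.2 by 1.19 ± 0.17, and all 3 were upregulated DEGs. The 2 other CRTISO genes, MELO3C016373.2 and MELO3C009571.2, and the zeta-carotene isomerase Z-ISO had log2 fold changes of 0.90, 0.52 and 0.46 and were under the 2-fold threshold. With library size alone, CRTISO MELO3C016373.2 passed it, at 1.05. In the test against a fold change of 2, the calls of GGPS, PSY MELO3C016185.2, PDS MELO3C020832.2 and CRTISO MELO3C016495.2 were lost.

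Lycopene is cyclized toward beta-carotene by the beta cyclase and toward lutein by the epsilon cyclase. The beta cyclase LCY1 had a log2 fold change of 0.93 ± 0.092, just under the threshold, and passed it with library size alone, at 1.08. The epsilon cyclase LUT2 (MELO3C004633.2) had 6.08, 6.82 and 4.57 CPM at 10 DAP and 1.63, 2.81 and 1.17 CPM at 30 DAP. It was low at both stages, the stages did not overlap, and the level fell 3.13-fold (log2 fold change -1.65 ± 0.33 (SE), adjusted p = 0.0023). At 45 DAP its mean was 9.83 ± 1.96 CPM, which is above both.

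The ring hydroxylases of the lutein branch went in opposite directions. CYP97A3, a beta ring hydroxylase, had 100.1, 121 and 108 CPM at 10 DAP and 38.8, 30.7 and 35.3 CPM at 30 DAP (log2 fold change -1.65 ± 0.11 (SE), adjusted p = 6.14e-06). CYP97C1, the epsilon ring hydroxylase, had 35.8, 28.5 and 28.1 CPM at 10 DAP and 79.4, 98.2 and 85.6 CPM at 30 DAP (log2 fold change 1.51 ± 0.13 (SE), adjusted p = 1.89e-05). In neither gene did the stages overlap. CCS (MELO3C017963.2), named after the capsanthin-capsorubin synthase of pepper, fell from 34.7, 41.8 and 52.9 CPM to 5.46, 3.52 and 4.04 CPM (log2 fold change -3.31 ± 0.21 (SE), adjusted p = 4.22e-06). The violaxanthin de-epoxidase VDE1, with 0.53, did not reach a 2-fold change.

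The genes that use carotenoids included the largest rise and the largest falls of the list. NCED enzymes cleave 9-cis-epoxycarotenoids, the step held to limit ABA synthesis. NCED6 (MELO3C023086.2) had 14.3, 13.4 and 17.1 CPM in the young fruits and 84.1, 91.4 and 101 CPM in the expanded ones, without overlap (log2 fold change 2.62 ± 0.12 (SE), adjusted p = 8.41e-07). At 45 DAP its mean was 28.8 ± 7 CPM, back toward the young level. NCED2 MELO3C007127.2 rose from 4.34, 4.58 and 6.01 CPM to 15.8, 22 and 23.2 CPM (log2 fold change 2.03 ± 0.19 (SE), adjusted p = 3.52e-05), and its mean at 45 DAP was 76.3 ± 24.7 CPM. The second NCED2 gene, MELO3C002744.2, went the other way, from 4.01, 2.6 and 4.09 CPM at 10 DAP to 0, 0.0476 and 0.0449 CPM at 30 DAP. All 3 libraries of 30 DAP were under the floor, so that the level was at least 25.4-fold lower (adjusted p = 1.35e-05). The counts of the NCED2, PSY, PDS and other genes that share a name may include reads of their copies, since how reads of similar genes were counted is not stated.

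AAO2 (MELO3C014719.2), an aldehyde oxidase of the family that makes ABA from its aldehyde, had 10.9, 17.7 and 13.4 CPM at 10 DAP and 58.8, 55.7 and 63.1 CPM at 30 DAP (log2 fold change 2.08 ± 0.16 (SE), adjusted p = 1.18e-05). Its stages were well apart, and at 45 DAP the mean was 18.6 ± 6.62 CPM. The family member AAO3, which catalyses that last step in Arabidopsis, had a log2 fold change of -0.67 ± 0.12 and was not a DEG. CYP707A2 (MELO3C016219.2), which breaks ABA down by 8′-hydroxylation, had 141, 387 and 476 CPM at 10 DAP and 76.3, 37.1 and 47.8 CPM at 30 DAP. Replicate 1 of the young fruits was far below the other 2 but still above every library of 30 DAP (log2 fold change -2.63 ± 0.46 (SE), adjusted p = 0.00101).

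CCD4 (MELO3C016224.2), a dioxygenase that degrades carotenoids to apocarotenoids, rose from 9.56, 12.5 and 8.29 CPM to 39.3, 39.3 and 42.8 CPM (log2 fold change 2.0 ± 0.15 (SE), adjusted p = 8.77e-06). The stages did not overlap, and the 3 libraries of 45 DAP were spread widely around a mean of 193 ± 143 CPM. CYP711A1 (MELO3C016879.2), the strigolactone gene MAX1 of Arabidopsis, had 114, 142 and 166 CPM in young fruits and 1.92, 0.857 and 1.08 CPM in expanded fruits. It was the largest change of the list among genes above the floor, a 109-fold fall (log2 fold change -6.77 ± 0.27 (SE), adjusted p = 5.13e-07).

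**Figure D2:**
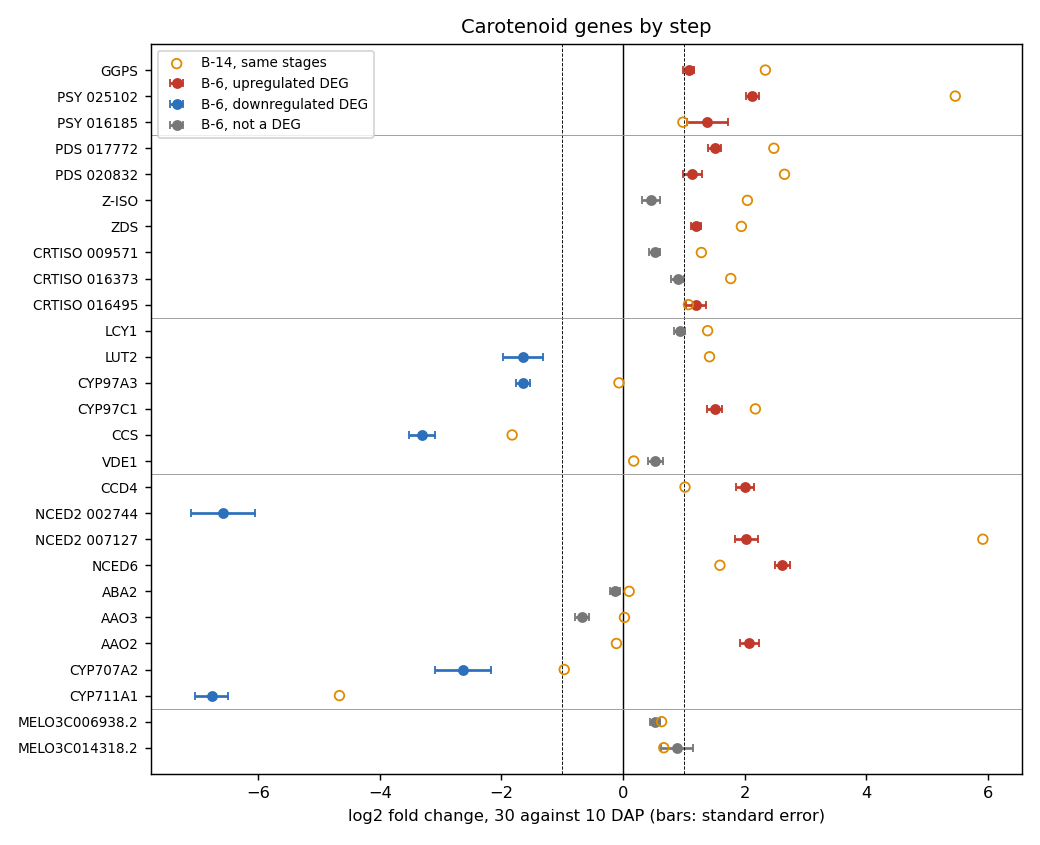
Log2 fold change at 30 against 10 DAP (horizontal axis) of the 27 carotenoid genes, ordered from the precursor step at the top to cleavage, with grey lines between steps and the 2 genes known by identifier only at the bottom. Filled points with standard error bars are “B-6”, open circles are “B-14” at the same stages (the second NCED2, MELO3C002744.2, was not tested in “B-14”), and dashed lines mark a 2-fold change; the filled points of the first 10 genes lie right of 0, and those below lie on both sides, from -6.77 for CYP711A1 to 2.62 for NCED6.

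Of 42 genes of the tetrapyrrole pathway, 41 were tested, and 8 were upregulated DEGs, 8 downregulated DEGs and 25 neither, with a median log2 fold change of 0.19. In both directions together these are 16 of 41 genes, beside 42.7% of all genes tested. Among the 13 genes of the early steps, from glutamate to protoporphyrin, 3 were downregulated and none was upregulated. Of all genes tested, 25.1% were downregulated and 17.6% upregulated. The 13 genes of the chlorophyll branch had 5 upregulated and 3 downregulated DEGs, the 8 tested genes of the chlorophyll cycle and breakdown 3 and 1, and the 7 genes of the haem and bilin branch 0 and 1.

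Glutamate enters the pathway bound to its transfer RNA. The glutamate-tRNA ligase At5g26710 (MELO3C015227.2) had 517, 979 and 912 CPM at 10 DAP and 72.3, 76.6 and 82.1 CPM at 30 DAP (log2 fold change -3.38 ± 0.24 (SE), adjusted p = 6.84e-06). HEMA2 (MELO3C018565.2), a glutamyl-tRNA reductase, the enzyme of the first committed step, fell from 270.3, 364 and 464 CPM to 67.2, 37.5 and 50.8 CPM (log2 fold change -2.82 ± 0.26 (SE), adjusted p = 3.21e-05). The coproporphyrinogen-III oxidase CPX (MELO3C016226.2) fell from 251, 458 and 398 CPM to 82.4, 77.6 and 82.6 CPM (log2 fold change -2.19 ± 0.20 (SE), adjusted p = 3.15e-05). None of these 3 overlapped between the stages, and in each of them replicate 1 was the lowest of the young libraries. The other genes of the early steps stayed under a 2-fold change. Among them was OVA3, the other glutamate-tRNA ligase of the list, and whether either ligase serves this pathway was not tested. HEMA1, the second glutamyl-tRNA reductase, had 0.28 ± 0.12, and the protoporphyrinogen oxidase POX1 had 0.98 ± 0.12. POX1 passed the threshold with library size alone and in 3 of the 6 fits without a library, in which its log2 fold change was at most 1.13.

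Magnesium chelatase, a complex of 3 subunits, leads protoporphyrin into the chlorophyll branch. CHLH (MELO3C023131.2), its large subunit, had 39.1, 26.5 and 22.3 CPM in young fruits and 356, 289.8 and 344 CPM in expanded fruits. The lowest library of 30 DAP stood far above the highest of 10 DAP (log2 fold change 3.49 ± 0.22 (SE), adjusted p = 4.12e-06), and the mean at 45 DAP was 707 ± 105 CPM. The second gene for that subunit, CHLH1 (MELO3C002961.2), was low, with 1.93, 0.886 and 0.744 CPM at 10 DAP, and had 0 counts in every library of 30 DAP. Its level was at least 8.45-fold lower at 30 DAP (adjusted p = 0.00125). The subunits CHLD and CHLI, with 0.50 ± 0.11 and 0.67 ± 0.18, did not reach a 2-fold change.

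Further along the branch the genes rose and fell in turn. The methyltransferase CHLM, which acts after the chelatase, was downregulated with log2 fold change -1.48 ± 0.13 (SE), adjusted p = 2.17e-05. CRD1 (MELO3C026802.2), the cyclase that closes the fifth ring, rose from 170.0, 151 and 126 CPM to 477, 433 and 488 CPM (log2 fold change 1.64 ± 0.13 (SE), adjusted p = 1.5e-05). Protochlorophyllide reductase, encoded by PORA genes, is the light-dependent step. PORA MELO3C013592.2 had 6.47, 5.99 and 8.61 CPM at 10 DAP and 1.73, 2.62 and 2.51 CPM at 30 DAP (log2 fold change -1.62 ± 0.24 (SE), adjusted p = 0.000392), whereas PORA MELO3C016714.2 was upregulated, with log2 fold change 1.06 ± 0.21 (SE), adjusted p = 0.00222. That second call was lost when replicate 3 of “1_6” was left out, at a log2 fold change of 0.86, and with at least 10 counts asked of every library, at 0.99.

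Rises were also found in the last steps. CHLP MELO3C017176.2, a geranylgeranyl reductase that makes the phytol tail, had 64.5, 58 and 30.6 CPM at 10 DAP and 135, 131 and 144 CPM at 30 DAP (log2 fold change 1.41 ± 0.25 (SE), adjusted p = 0.00105). CAO (MELO3C010614.2), which turns chlorophyllide a into the b form, rose from 50.2, 63.9 and 46.3 CPM to 256, 244 and 269 CPM (log2 fold change 2.26 ± 0.13 (SE), adjusted p = 2.58e-06). Neither gene overlapped between the stages. Chlorophyll synthase, CHLG, which joins the ring to the tail, had 0.18 ± 0.074 and was not a DEG.

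Chlorophyll b is turned back to chlorophyll a before it is broken down. NYC1 (MELO3C025347.2), the chlorophyll b reductase that begins this, had 32.4, 38.8 and 38 CPM in young fruits and 298, 359 and 342 CPM in expanded fruits. The stages did not overlap, and the level rose 9.15-fold (log2 fold change 3.19 ± 0.12 (SE), adjusted p = 3.43e-07). HCAR (MELO3C006358.2), the reductase that completes that step, rose from 10.3, 6.46 and 5.58 CPM to 23.1, 18.9 and 23.7 CPM (log2 fold change 1.55 ± 0.23 (SE), adjusted p = 0.000469). The related chlorophyll b reductase NOL and the chlorophyllase CLH2, at 0.84 ± 0.15 and 0.74 ± 0.13, were under the threshold. The pheophorbide a oxygenases, which open the ring, were split. PAO MELO3C004867.2 was downregulated (log2 fold change -1.30 ± 0.12 (SE), adjusted p = 2.65e-05) and PAO MELO3C035546.2 upregulated (log2 fold change 1.10 ± 0.22 (SE), adjusted p = 0.00236), a call lost at 0.99 without replicate 1 of “1_6”. In the haem branch the ferrochelatase HEMH (MELO3C010762.2) fell from 123, 145 and 193 CPM to 54.2, 38.8 and 45.1 CPM (log2 fold change -1.74 ± 0.19 (SE), adjusted p = 6.91e-05), and the haem oxygenase HO1 had 0.80 ± 0.15 and was not a DEG.

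**Figure D3:**
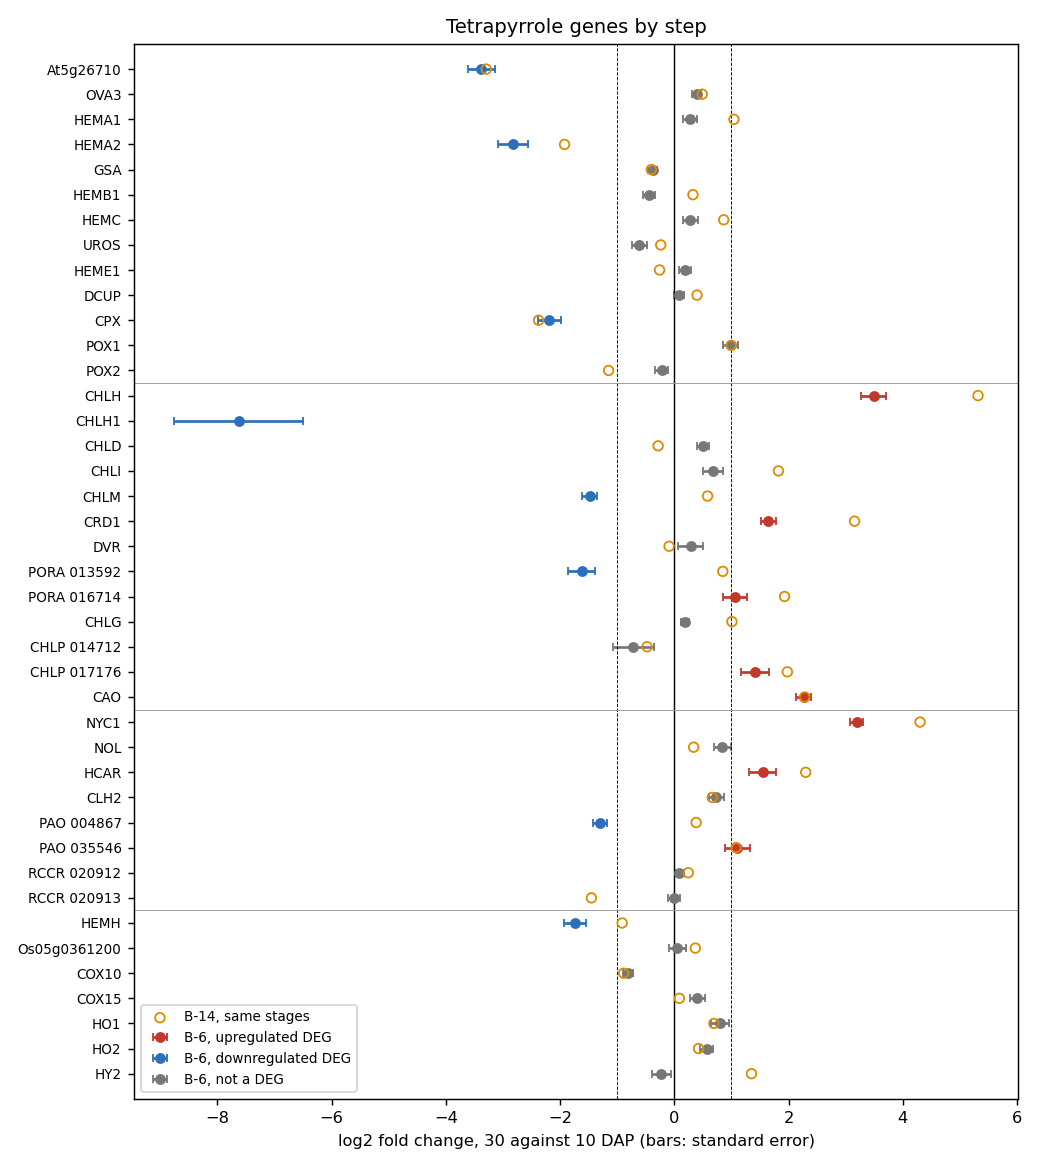
Log2 fold change at 30 against 10 DAP (horizontal axis) of the 41 tetrapyrrole genes tested, from the early steps at the top through the chlorophyll branch and chlorophyll breakdown to haem and bilins at the bottom. Filled points with standard error bars are “B-6”, open circles are “B-14” at the same stages (CHLH1 was not tested in “B-14”), and dashed lines mark a 2-fold change; in the top block the DEGs are blue (3 downregulated), and the red points, led by CHLH at 3.49 and NYC1 at 3.19, lie in the middle blocks.

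The 42 transcription factor genes are those that the study tabulated in contrasts of other groups, nearly all between the lines at 45 DAP. Of the 34 that were tested, 9 were upregulated and 15 downregulated DEGs, beside 17.6% and 25.1% of all genes tested. Their median log2 fold change was -0.34, beside 0.025 for all genes tested. Of 8 tested WRKY genes, a family best known from defence and senescence, 5 were downregulated and none was upregulated. The 5 ERF genes had 2 in each direction, the 4 NAC genes 2 in each direction, the 5 bHLH genes 1 up and 2 down, the 3 bZIP genes 1 up and 2 down, and the 4 MYB genes 1 in each direction.

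LEP (MELO3C005088.2), an ERF named LEAFY PETIOLE in Arabidopsis, was under the floor in the young fruits, with 0, 0.0521 and 0.106 CPM, and had 10.6, 10.9 and 12.9 CPM in the expanded fruits. Its level was at least 74.6-fold higher at 30 DAP (adjusted p = 1.44e-06), and the mean at 45 DAP was 1.79 ± 0.723 CPM. BBX18, a B-box zinc finger protein, had 0 counts in every library of 10 DAP and 0.815, 1.33 and 0.538 CPM at 30 DAP, at least 5.83-fold higher (adjusted p = 0.00135). Neither gene was thus detected above the floor in the young libraries, and every library of 30 DAP held it.

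NAC73 (MELO3C002628.2), a NAC factor tied to secondary wall formation in Arabidopsis, had 7, 8.54 and 7.07 CPM at 10 DAP and 47.1, 51.7 and 47.5 CPM at 30 DAP (log2 fold change 2.69 ± 0.11 (SE), adjusted p = 5.23e-07). The replicates of a stage lay close together, and the mean at 45 DAP was 106 ± 28 CPM. NAC21/22 rose from 0.724, 0.781 and 1.12 CPM to 3.98, 4.76 and 3.77 CPM (log2 fold change 2.25 ± 0.26 (SE), adjusted p = 9.84e-05). ERF039 had 0.821, 0.156 and 0.213 CPM at 10 DAP and 2.64, 2.33 and 3.19 CPM at 30 DAP (log2 fold change 2.73 ± 0.52 (SE), adjusted p = 0.00165). MYB48 had 0.965, 2.34 and 3.03 CPM and then 4.79, 12.2 and 7.58 CPM (log2 fold change 1.96 ± 0.45 (SE), adjusted p = 0.00471). The replicates of ERF039 and MYB48 spread more widely than those of the NAC genes, but in neither did the stages overlap. Without replicate 1 of “1_6”, the log2 fold change of ERF039 was 3.83. The homeobox gene HD1 and the bZIP gene bZIP4 were also upregulated, by 1.78 ± 0.19 and 1.89 ± 0.43 on the log2 scale.

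Among the downregulated factors, ERF061 (MELO3C005747.2) had 292, 335 and 429.5 CPM in young fruits and 0.767, 0.619 and 0.673 CPM in expanded fruits, a 509-fold fall (log2 fold change -8.99 ± 0.22 (SE), adjusted p = 1.35e-07). ERF106 (MELO3C005466.2) fell from 188, 269 and 325 CPM to 7.24, 7.48 and 7.4 CPM (log2 fold change -5.14 ± 0.21 (SE), adjusted p = 5.86e-07). HSF24 (MELO3C007560.2), a heat shock factor, fell from 331, 532 and 636 CPM to 12.7, 7.43 and 8.57 CPM (log2 fold change -5.70 ± 0.32 (SE), adjusted p = 2.23e-06). In all 3 the young libraries were spread, with replicate 1 the lowest, and still lay far above those of 30 DAP.

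WRKY15 (MELO3C007576.2) had 61, 34.1 and 28.9 CPM at 10 DAP, where replicate 1 was the highest, and 3.26, 3.05 and 2.78 CPM at 30 DAP (log2 fold change -3.77 ± 0.32 (SE), adjusted p = 1.67e-05). bHLH69 fell from 6.81, 5.63 and 5.42 CPM to 0.24, 0.476 and 0.942 CPM (log2 fold change -3.41 ± 0.39 (SE), adjusted p = 0.000101). bZIP34 had 2.85, 1.41 and 1.28 CPM in the young fruits and was under the floor in the expanded ones, at least 13.1-fold lower (adjusted p = 0.000154). None of the 3 genes overlapped between the stages, and without replicate 3 of “3_6” the log2 fold change of bHLH69 was -4.04. Further downregulated DEGs were bHLH35 (-3.28 ± 0.32), MYB12 (-2.53 ± 0.41), which activates flavonol genes in Arabidopsis, NAC55 (-2.32 ± 0.14) and bZIP43 (-2.12 ± 0.27).

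The 46 remaining genes come from the study's lists of top DEGs over time in “B-14” or between the lines at 45 DAP, contrasts that use none of these 6 libraries, and 45 were tested. They held 12 upregulated and 22 downregulated DEGs, 34 together, beside 42.7% of all genes tested (17.6% upregulated and 25.1% downregulated). Their median log2 fold change was -0.72, beside 0.025 for all genes tested. The study had listed 17 of these genes for “B-14” at 30 against 10 DAP, WRKY15 and 16 genes of this group, and all 17 were DEGs in “B-6” with the same direction in both lines. The lists differed in this count. Without the genes that the study also tabulated as transcription factors or chlorophyll genes, 18 genes remained in each of the other lists. Of those listed for “B-14” at 45 against 10 DAP, 16 were DEGs in “B-6”. Of those listed between the lines at 45 DAP, 17 were tested and 8 were DEGs in “B-6”. Among genes tested in both lines, 61.2% of the upregulated and 75.9% of the downregulated DEGs of “B-14” had the same call in “B-6”. The genes of these lists were chosen for their significance in “B-14” or between the lines.

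Of 6 genes of the cell wall and of sugar use, 5 were downregulated and none was upregulated, beside 25.1% and 17.6% of all genes tested. XTH5 (MELO3C026755.2), a xyloglucan endotransglucosylase/hydrolase that cuts and rejoins wall polymers during expansion, had 754, 586 and 704 CPM in young fruits and 3.07, 1.62 and 2.11 CPM in expanded fruits. No library of 30 DAP came near those of 10 DAP, a 301-fold fall (log2 fold change -8.23 ± 0.26 (SE), adjusted p = 2.33e-07). A second gene of the family, XTH22, fell by 1.56 on the log2 scale (SE 0.26, adjusted p = 0.000739), and pectin acetylesterase 8 by 1.57 (SE 0.14). Sucrose synthase (MELO3C015552.2), which feeds imported sucrose into growing sinks, had log2 fold change -4.15 ± 0.26 (SE), adjusted p = 3.94e-06, and the wall glycoprotein germin-like protein 5-1 had log2 fold change -4.05 ± 0.18 (SE), adjusted p = 6.86e-07.

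Signalling genes held 5 downregulated and no upregulated DEG among 9 tested, beside 25.1% and 17.6% of all genes tested. RBOHB (MELO3C015312.2), an NADPH oxidase that makes superoxide at the plasma membrane, had 102, 246 and 277 CPM at 10 DAP and 1.29, 0.714 and 0.628 CPM at 30 DAP (log2 fold change -7.88 ± 0.50 (SE), adjusted p = 3.93e-06). Replicate 1 of the young fruits was below the other 2, and all were far above 30 DAP. The calcium sensor calmodulin-3 (MELO3C026342.2) fell from 1189.8, 1063 and 1250.5 CPM to 21.3, 13.7 and 15.9 CPM (log2 fold change -6.11 ± 0.21 (SE), adjusted p = 3.14e-07). The receptor-like kinase CRK2 and the F-box protein At2g44130-like were downregulated with log2 fold changes of -3.18 ± 0.13 and -4.29 ± 0.17.

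Membrane transport held 3 upregulated and 4 downregulated DEGs among 9 genes, beside 17.6% and 25.1% of all genes tested. PIN-LIKES 6 (MELO3C025264.2), of a family of auxin carriers of the endoplasmic reticulum, had 126, 159.6 and 121 CPM at 10 DAP and 4747, 4379.6 and 4789.9 CPM at 30 DAP (log2 fold change 5.09 ± 0.18 (SE), adjusted p = 3.2e-07). The rise was 34.1-fold without overlap, and the mean at 45 DAP was 5270.1 ± 1463 CPM. The vacuolar exchanger CAX3 and the vacuolar sorting receptor VSR6 were also upregulated, by 2.13 ± 0.14 and 2.17 ± 0.20. The nucleoside transporter ENT3 (MELO3C007334.2) fell from 336, 394 and 399 CPM to 3.5, 2.33 and 2.11 CPM (log2 fold change -7.15 ± 0.21 (SE), adjusted p = 1.77e-07). ABCB11, of the auxin transporting ABCB family, and the amino acid transporter LHT1 were downregulated with log2 fold changes of -4.80 ± 0.18 and -4.76 ± 0.22.

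All 7 lipid genes were DEGs, 4 upregulated and 3 downregulated, beside 17.6% and 25.1% of all genes tested. FAO1 (MELO3C006405.2), a long-chain alcohol oxidase, had 4.83, 3.33 and 2.34 CPM at 10 DAP and 39.7, 49.9 and 43.3 CPM at 30 DAP (log2 fold change 3.65 ± 0.23 (SE), adjusted p = 4.12e-06). ECI2 (MELO3C006443.2), an isomerase for the oxidation of unsaturated fatty acids, had 6.37, 6.25 and 3.93 CPM and then 56.3, 58 and 61.1 CPM (log2 fold change 3.40 ± 0.17 (SE), adjusted p = 1.37e-06). The stages did not overlap in either gene, and at 45 DAP the means were 214 ± 76.7 CPM for FAO1 and 104 ± 11 CPM for ECI2. The 2 acyl carrier protein desaturases named by the study went opposite ways, MELO3C010739.2 up by 3.12 ± 0.13 and MELO3C008413.2 down, at -5.67 ± 0.30. SFR2, which remodels chloroplast galactolipids, was upregulated by 2.67 ± 0.10.

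Among the other metabolic genes, beta-amyrin synthase (MELO3C002943.2), which makes a triterpene skeleton, had 0.193, 0.313 and 0.532 CPM in young fruits and 187, 216 and 243 CPM in expanded fruits. It passed from near the floor to a high level, a 620.1-fold rise (log2 fold change 9.28 ± 0.23 (SE), adjusted p = 1.36e-07), and its mean at 45 DAP was 1051 ± 206 CPM. CRG1 (MELO3C012305.2), annotated as a methyltransferase, fell from 176, 214 and 233 CPM to 2.88, 3.81 and 2.24 CPM (log2 fold change -6.13 ± 0.20 (SE), adjusted p = 2.63e-07). The phenolic glucoside malonyltransferase PMAT1 was upregulated by 2.69 ± 0.25.

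Of 10 genes of RNA, protein and stress functions, 3 were upregulated and 4 downregulated DEGs, beside 17.6% and 25.1% of all genes tested. MT3 (MELO3C016513.2), a metallothionein-like protein that binds metals, rose from 5.07, 9.79 and 6.96 CPM to 472, 528 and 420.0 CPM (log2 fold change 6.03 ± 0.25 (SE), adjusted p = 5.7e-07). CDC48 (MELO3C026279.2), an ATPase of protein turnover, rose from 28, 44.4 and 40.1 CPM to 414, 455 and 444 CPM (log2 fold change 3.54 ± 0.17 (SE), adjusted p = 1.1e-06). Umecyanin (MELO3C004455.2), a blue copper protein, had 1171, 1486 and 1813 CPM at 10 DAP and 2.83, 2.29 and 1.35 CPM at 30 DAP, a 693-fold fall (log2 fold change -9.44 ± 0.33 (SE), adjusted p = 3.18e-07). The stages were fully apart in all 3. The ribonuclease RNS1, a gene of phosphate starvation and senescence in Arabidopsis, was also downregulated, at -4.21 ± 0.25.

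**Figure D4:**
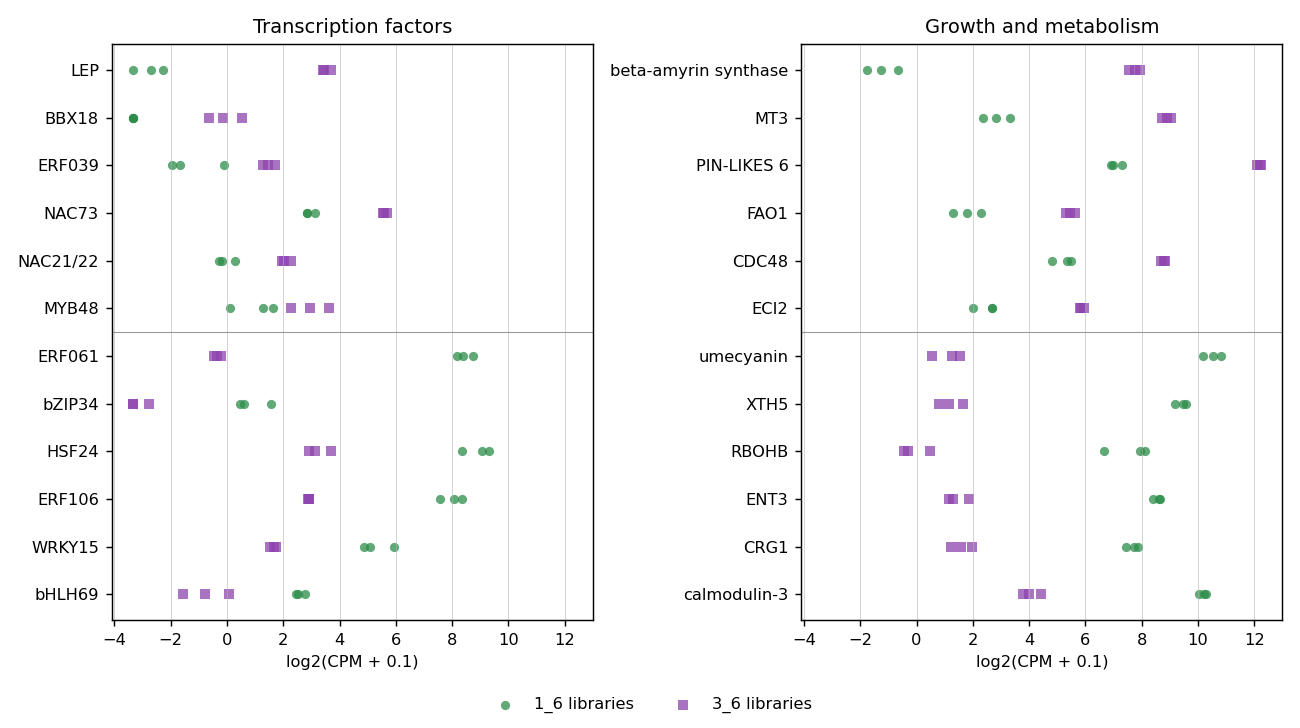
Levels of 24 genes in each of the 6 libraries as log2(CPM + 0.1) (horizontal axis), circles for “1_6” (10 DAP) and squares for “3_6” (30 DAP). Among the DEGs whose stages did not overlap, the 6 upregulated ones of largest change are above the grey line and the 6 downregulated below it. The circles and the squares are thus separate by choice of the genes. Transcription factors are on the left and growth and metabolism genes on the right, and libraries with 0 counts sit at the left edge of the scale.

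Replicate 1 was more often than its fellows the library nearest to the other stage, at both stages. Among the downregulated DEGs, replicate 1 of “1_6” was the library of its group nearest to the mean of 30 DAP in 49.0% of genes, and replicate 1 of “3_6” the nearest to the mean of 10 DAP in 49.5%. Replicate 2, the next, had 27.1% and 29.8% there. Among the upregulated DEGs the shares of replicate 1 were 38.9% and 43.2%, and those of replicate 2 were 33.3% and 29.9%. The part of replicate 1 in the results was not tested beyond leaving the library out. That gave 7201 DEGs without replicate 1 of “1_6” and 7323 without replicate 1 of “3_6”.

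The same stages were compared in “B-14”, which shares no library with “B-6”. There, 7048 of 16514 genes tested (42.7%) were DEGs, 19% upregulated and 23.7% downregulated. Over the 16043 genes tested in both lines, the log2 fold changes had a Pearson's r of 0.852 and a Spearman's rho of 0.771 across genes, given as a description. Upregulated in both were 1858 genes, 65.4% of those upregulated in “B-6” and 61.2% of those in “B-14”, and downregulated in both were 2777, 72.1% and 75.9%. Opposite calls were rare, with 42 genes up in “B-6” and down in “B-14” and 53 the reverse.

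Whether the change itself differed was tested by the line by stage interaction in 12 libraries, coded as the change in “B-6” minus that in “B-14”. A gene was called where the adjusted p-value did not exceed 0.05 and the interaction was 1 or more in size on the log2 scale, which held for 3737 of 17135 genes (21.8%), 1751 of them with the higher value in “B-6” (10.2%) and 1986 with the lower one (11.6%). Of the 27 carotenoid genes 13 were called, 10 lower and 3 higher in “B-6”, and of the 42 tetrapyrrole genes 10 were called, 9 lower and 1 higher. Among 39 transcription factors 7 were called, and among 45 growth and metabolism genes 33. The growth and metabolism genes were taken from the study's lists of most significant DEGs in “B-14” or between the lines, in libraries that enter this test in part, so their count is not independent.

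Among the genes of phytoene synthesis, PSY MELO3C025102.2 rose by 2.13 ± 0.11 on the log2 scale in “B-6” and by 5.47 ± 0.27 in “B-14”, an interaction of -3.31 ± 0.27 (adjusted p = 9.89e-06). At 10 DAP its mean was 35.1 ± 4.44 CPM in “B-6” and 5.3 ± 0.663 CPM in “B-14”, and at 30 DAP 153 ± 8.27 and 232 ± 68.3 CPM. “B-6” was thus the higher line at 10 DAP and the lower one at 30 DAP, and the libraries of the lines did not overlap at either stage. LUT2 fell in “B-6” (-1.65 ± 0.33) and rose in “B-14” (1.42 ± 0.43), with an interaction of -3.03 ± 0.58 (adjusted p = 0.00175), and was the 1 listed gene with opposite calls. AAO2, upregulated in “B-6”, had -0.11 ± 0.15 in “B-14” and an interaction of 2.22 ± 0.24 (adjusted p = 4.21e-05).

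In the tetrapyrrole pathway the change of CHLH was 3.49 ± 0.22 in “B-6” and 5.32 ± 0.26 in “B-14”, an interaction of -1.79 ± 0.33 (adjusted p = 0.0014). CHLM was downregulated in “B-6” and had 0.58 ± 0.24 in “B-14” (interaction -2.03 ± 0.29, adjusted p = 0.000283). None of the 13 genes of the early steps was called, and neither was CAO, with an interaction of 0.013 ± 0.33. ECI2, upregulated in “B-6”, had -0.29 ± 0.16 in “B-14” (interaction 3.72 ± 0.23, adjusted p = 2.36e-06). Beta-amyrin synthase rose by 3.69 ± 0.56 in “B-14”, less than in “B-6” (interaction 5.63 ± 0.70, adjusted p = 0.000117).

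**Figure D5:**
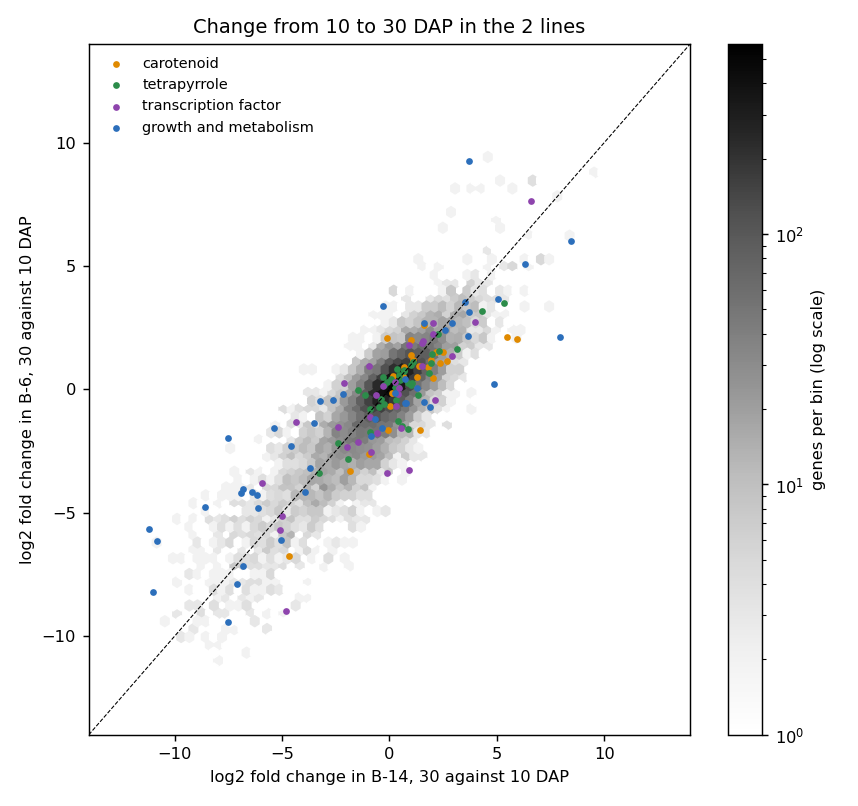
Log2 fold change at 30 against 10 DAP in “B-6” (vertical axis) against that in “B-14” (horizontal axis) for the 16043 genes tested in both lines, in grey hexagonal bins shaded by the number of genes on a log scale, with the listed genes as coloured points and equal change on the dashed line. The cloud runs along the diagonal (Pearson's r 0.852), and PSY, at 2.13 in “B-6” and 5.47 in “B-14”, is among the orange points at the right below it.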

How the data were processed

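Paired-end stranded mRNA libraries were sequenced from fruits of each line at 3 stages, 3 libraries per group. The authors trimmed the reads with Trimmomatic and aligned them with HISAT2 to the melon genome. They deposited counts per gene, whole numbers without normalization, and the program versions, genome build, annotation, counting program, use of strand and treatment of reads that match several genes are not given in the sources used here. The file also has no gene descriptions, none of the MELO3C identifiers matched the RefSeq table at hand, and symbols are the paper's.

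The 6 libraries were fitted in edgeR 4.0.16 (R 4.3.3) with TMM factors, filterByExpr and the quasi-likelihood F test. DEGs had a p-value, before adjustment, not above 0.05 and a change of 2-fold or more in either direction, the threshold of the paper, which used the DESeq package. P-values were adjusted by the Benjamini-Hochberg method across the whole table tested. Log2 fold changes carry a standard error derived from the F statistic, and levels are given for each library or as mean ± SD (n = 3). A fold change against a group with at most 3 counts in every library is a lower bound against 3 counts per library, and the list medians were the same with such genes at their bound. The interaction of line and stage was fitted on 12 libraries, and the steps were tested on simulated data. Between 27.7% and 64.7% of genes differed between replicates beyond binomial sampling, and p-values measure the spread between these 3 libraries a stage.

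The comparison and the gene lists were chosen with earlier results of these data known. Levels in every library are given for at most 6 DEGs per list and direction, those of largest change without overlap, and for PSY, GGPS, LUT2, NYC1 and CHLH. Genes the paper does not name are the 2 of smallest p-value in each direction. Alternatives were DESeq2 1.42.0, RLE factors, library size alone, other filters, all 18 libraries in 1 fit, a replicate block, other thresholds and each library left out.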

Additional observations from a re-analysis of the deposited data

Results flagged for a closer look

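For 45 of the genes named above, the change from 10 to 30 DAP differed between the lines by the interaction test of edgeR (adjusted p-value not above 0.05, size of 1 or more on the log2 scale). Of all listed genes, 63 of 153 tested were called, beside 21.8% of all genes tested. Many of these genes were listed or named for the size or significance of their change, so that these counts are a description and no independent evidence. Each value in parentheses is the change in “B-6” minus that in “B-14” on the log2 scale, so that a negative value means a lower log2 fold change in “B-6”, whether by a smaller rise, a larger fall or a change of opposite sign.

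Among the carotenoid genes, the value was negative for NCED2 MELO3C002744.2 (-6.37), NCED2 MELO3C007127.2 (-3.86), PSY MELO3C025102.2 (-3.31), LUT2 (-3.03), CYP711A1 (-2.07), Z-ISO (-1.55), CYP97A3 (-1.55), PDS MELO3C020832.2 (-1.48), CCS (-1.46) and GGPS (-1.23). It was positive for AAO2 (2.22), NCED6 (1.06) and CCD4 (1.01). NCED2 MELO3C002744.2 was at or near the floor in “B-14” at both stages, so that its value rests on the fall in “B-6” alone.

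Among the tetrapyrrole genes, the value was negative for PORA MELO3C013592.2 (-2.43), CHLM (-2.03), CHLH (-1.79), PAO MELO3C004867.2 (-1.65), CRD1 (-1.48), CHLI (-1.11) and NYC1 (-1.07).

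Among the transcription factors, the value was negative for bHLH35 (-4.15), ERF061 (-4.13) and bHLH69 (-3.25) and positive for WRKY15 (2.21).

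Among the growth and metabolism genes, which come from the study's lists of most significant DEGs in “B-14” or between the lines, the value was negative for CAX3 (-5.76), MT3 (-2.41), umecyanin (-1.90), VSR6 (-1.44), FAO1 (-1.39), pectin acetylesterase 8 (-1.17), PIN-LIKES 6 (-1.17) and calmodulin-3 (-1.01). It was positive for beta-amyrin synthase (5.63), stearoyl-ACP desaturase 6 (5.55), CRG1 (4.75), LHT1 (3.86), XTH22 (3.82), ECI2 (3.72), germin-like protein 5-1 (2.81), XTH5 (2.80), RNS1 (2.71), sucrose synthase (2.28), At2g44130-like F-box protein (1.92), ABCB11 (1.34) and PMAT1 (1.13). Of these, several fell in both lines and further in “B-14”, such as stearoyl-ACP desaturase 6, with -5.67 in “B-6” and -11.20 in “B-14”, and XTH5, with -8.23 and -11.00. CAX3 rose in both, by 2.13 in “B-6” and 7.92 in “B-14”.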

How the results depend on the processing

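The count of DEGs stayed within 1.5 times of 7041 under every alternative tried. It was 6970 with DESeq2 (6848 shared), 6980 with RLE factors, 7339 with library size alone (52.5% downregulated in place of 58.8%), 8114 with every gene of at least 1 count, 5066 with at least 10 counts in every library and 7485 with all 18 libraries in 1 fit. Leaving out each library in turn gave 7089 to 7323. The replicate numbers did not pair the samples, since deviations of same-numbered libraries correlated at -0.11, -0.012 and -0.055, and the replicate block gave 7029 DEGs (6988 shared) and 3665 interaction calls. Interaction calls lay between 3080 and 4043 under the other alternatives, those without a library included. Upregulated tetrapyrrole DEGs fell to 5 in the test against a fold change of 2, and upregulated transcription factors to 5 with at least 10 counts in every library. Genes at the floor at 30 DAP numbered 1063 with a floor of 10 counts and 135 with at least 100 counts in young fruits, and those at the floor at 10 DAP 292 and 27. The share of counts in the most abundant genes rose by 0.944 percentage points for 100 genes and by 0.734 for 10. Of the 98 genes given with a value, 87 kept their direction and their side of the threshold in every setting in which they were tested, 11 changed side in at least 1 setting, and none changed direction. With 3 libraries a stage, 1 library decides much of the spread, and genes near 3 counts carry little information.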
